A study of Mus musculus with 6 samples.

Results

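The lineage basic helix-loop-helix (bHLH) transcription factors described here are 38 genes of the 24421 in the read-count table, chosen by symbol for their roles in neural, muscle, mesoderm and Notch-effector programmes. All 38 were matched to a row. Transcripts were measured by RNA-seq in germinal vesicle (GV) oocytes, which are fully grown oocytes arrested in meiotic prophase, from mice of a mixed FVB, 129/Sv and C57BL/6J background aged about 3 months. The DKO group (3 libraries) had the genotype Ring1 -/-; Rnf2 f/f; Zp3-cre, and the SKO group (3 libraries) was Ring1 -/-; Rnf2 f/f without the transgene. Ring1 was therefore null in both groups, and the comparison concerns deletion of Rnf2, which encodes the other E3 ligase of Polycomb repressive complex 1 (PRC1), on that background. The Zp3 promoter that drives the Cre is active in growing oocytes. Since only DKO mice carried it, transgene and deletion cannot be told apart. Each library held 15 oocytes of a single mouse, so a low level in every oocyte and a high level in a few of them cannot be told apart.

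A bHLH protein binds DNA as a dimer, its basic region contacting a short E-box sequence and its helices forming the dimer. Most lineage factors pair with a broadly expressed E-protein and switch on the programme of a tissue: neurogenins and NeuroD factors that of neurons, MyoD-family factors that of skeletal muscle, Hand, Twist and Mesp factors those of mesoderm. Most Hes and Hey proteins act as repressors downstream of Notch, and Id proteins lack the basic region and block dimers. Promoters of many such genes are classical Polycomb targets in embryonic stem cells.

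Total counts ranged from 15521975 to 26652745 per library, and 3 counts, the floor used here for a count of 0, corresponded to 0.116 to 0.171 CPM (counts scaled to library size, with TMM factors). Rnf2 measured 56.3, 30.7 and 22.9 CPM in DKO replicates 1 to 3 and 203, 180 and 187 CPM in SKO (log2 fold change -2.38, SE 0.30, edgeR quasi-likelihood adjusted p = 0.000349), so some signal was left in DKO. The labels do not state which exons are deleted. Ring1 had 19 counts over DKO and 10 over SKO. Oocyte markers were abundant in all libraries, led by Gdf9, Bmp15 and Nlrp5. The summed level of 15 markers was 22930 to 24297 CPM in SKO and 14307 to 17484 CPM in DKO. Of the 15, 8 were lower and 1 higher, beside 7.41% and 17.3% of all tested genes. The lower count was 4 or 5 without 1 of the SKO libraries. The higher count was 0 without DKO replicate 1 or 3 or SKO replicate 1 or 2. Libraries correlated at 0.957 to 0.971 within DKO, 0.987 to 0.989 within SKO and 0.903 to 0.933 between genotypes (Pearson r of log2(CPM + 1) across tested genes, which are not independent replicates).

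Several of these regulators were more abundant in DKO oocytes, and none passed the test in the other direction. The hypothalamic factor Sim1, the oligodendrocyte and motor neuron factor Olig2, the proneural gene Neurog1, the somite factor Tcf15 and 5 of the 6 Hes and Hey genes were higher. All 4 myogenic factors and most proneural and NeuroD genes stayed at or near 0 in both genotypes. Of 38 members, 15 passed the filter on low counts and were tested, 9 of them were higher in DKO and 0 were lower (edgeR quasi-likelihood test, adjusted p under 0.05), against 17.3% higher and 7.41% lower among all 14845 genes tested. At an unadjusted p under 0.05 the counts were 11 and 1, a rule under which all genes were not counted. The DESeq2 Wald test gave 9 and 1 members, beside 2883 higher and 1594 lower of all 14845 genes tested. The member counts are in part fixed by the filter: 7 of the 15 members passed it only with the help of DKO libraries, and 6 of these 7 were higher, where 49.3% of all genes that entered in this way were higher. Of the 8 members that pass on the SKO libraries alone, 3 were higher (Hes6, Hey1 and Hey2) and 0 lower, beside 12% and 8.63% of such genes. Their median log2 fold change was 0.66, beside -0.06 for the 12731 genes that pass in that way, and both values are descriptions.

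**Figure D1:**
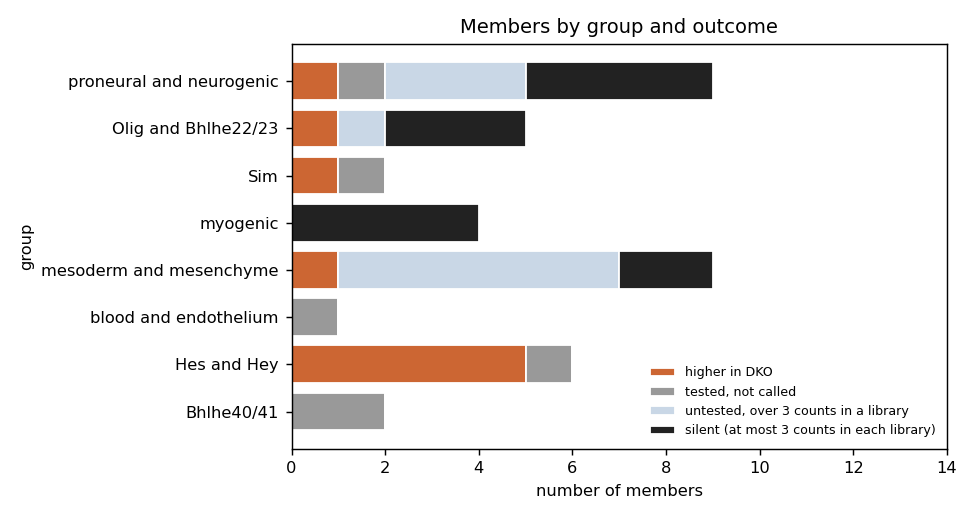
Number of members (horizontal axis) in each developmental group (vertical axis), split by outcome: higher in DKO, tested but not called, untested with over 3 counts in some library, and silent with at most 3 counts in each library. The Hes and Hey group holds 5 of the 9 called members, and all 4 myogenic members are silent.

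Detection moved in the same direction. Over 3 counts were found for 19 members in each DKO library and for 12, 16 and 12 members in SKO replicates 1 to 3, although the DKO libraries were on average shallower. With every library thinned to 15521975 counts, the numbers were 19, 19 and 18 in DKO and 10, 12 and 8 in SKO. The same numbers were not counted over all genes, so they are not known to be particular to the members. Of 18 members with 0 counts in all SKO libraries, 7 (38.9%) had over 3 counts in DKO as a group, compared with 775 of 5730 genes (13.5%) in the whole table. A gene with 0 SKO counts can differ only upward in DKO, so the direction of this count is fixed by the choice.

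The start sites of 25 members were found in the RefSeq promoter table for GRCm38.p6 (28 windows of 300 bases, 250 before to 50 after the start). Of these, 6 windows are printed to show the range in CpG content, since CpG-rich promoters are those at which Polycomb complexes typically act: 4 from called members, then 2 from silent ones, of which Myf5 is among the poorest in CpG and Neurod1 the richest. The windows are Sim1 (chr10:50895401-50895700, plus strand), Olig2 (chr16:91225300-91225599, plus), Neurog1 (chr13:56252131-56252430, minus), Hes5 (chr4:154960673-154960972, plus), Myf5 (chr10:107486085-107486384, minus) and Neurod1 (chr2:79456587-79456886, minus), each written 5′ to 3′ with CG dinucleotides in capitals. The start site behind a window is that of a RefSeq transcript and can lie inside the gene's outer limits: by 953 bases for Sim1, 297 for Hes5 and 793 for Myf5, and by 0 for the 3 others.
Sim1: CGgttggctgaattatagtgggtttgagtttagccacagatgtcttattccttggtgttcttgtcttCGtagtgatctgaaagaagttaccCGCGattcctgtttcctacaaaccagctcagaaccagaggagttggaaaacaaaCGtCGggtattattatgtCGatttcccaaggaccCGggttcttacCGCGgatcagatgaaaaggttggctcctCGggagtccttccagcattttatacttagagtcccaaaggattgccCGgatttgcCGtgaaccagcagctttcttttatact
Olig2: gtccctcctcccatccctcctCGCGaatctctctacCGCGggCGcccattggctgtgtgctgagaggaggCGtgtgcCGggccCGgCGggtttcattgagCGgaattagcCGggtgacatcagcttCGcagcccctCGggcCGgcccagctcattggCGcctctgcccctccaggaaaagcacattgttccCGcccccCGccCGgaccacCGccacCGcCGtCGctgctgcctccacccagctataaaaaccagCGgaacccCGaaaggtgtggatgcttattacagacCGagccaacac
Neurog1: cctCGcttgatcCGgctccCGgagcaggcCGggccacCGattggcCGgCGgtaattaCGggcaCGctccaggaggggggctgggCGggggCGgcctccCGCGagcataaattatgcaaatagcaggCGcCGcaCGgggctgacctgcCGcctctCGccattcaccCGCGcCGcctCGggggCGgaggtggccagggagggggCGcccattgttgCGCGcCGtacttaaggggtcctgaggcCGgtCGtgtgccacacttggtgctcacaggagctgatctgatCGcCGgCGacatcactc
Hes5: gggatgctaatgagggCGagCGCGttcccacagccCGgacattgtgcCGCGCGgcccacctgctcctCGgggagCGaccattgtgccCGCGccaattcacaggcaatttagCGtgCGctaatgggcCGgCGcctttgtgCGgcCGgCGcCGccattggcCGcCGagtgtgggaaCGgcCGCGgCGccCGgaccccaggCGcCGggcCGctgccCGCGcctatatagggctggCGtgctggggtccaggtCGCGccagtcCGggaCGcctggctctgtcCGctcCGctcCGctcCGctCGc
Myf5: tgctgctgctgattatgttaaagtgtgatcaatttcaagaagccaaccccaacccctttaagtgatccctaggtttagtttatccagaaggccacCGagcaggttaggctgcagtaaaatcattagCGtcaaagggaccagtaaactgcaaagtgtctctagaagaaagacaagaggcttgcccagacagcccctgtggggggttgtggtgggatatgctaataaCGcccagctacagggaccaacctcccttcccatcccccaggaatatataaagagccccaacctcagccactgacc
Neurod1: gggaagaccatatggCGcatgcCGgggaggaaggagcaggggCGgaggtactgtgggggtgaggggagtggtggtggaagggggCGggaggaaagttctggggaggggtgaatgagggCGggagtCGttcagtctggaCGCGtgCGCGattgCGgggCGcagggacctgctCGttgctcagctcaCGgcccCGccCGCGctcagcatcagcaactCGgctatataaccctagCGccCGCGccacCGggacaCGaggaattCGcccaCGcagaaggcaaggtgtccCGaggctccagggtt
The CG dinucleotide, which reads the same on both strands, occurred 13 times in the Sim1 window, 25 times at Olig2, 32 times at Neurog1 and 41 times at Hes5. It occurred 3 times at Myf5 and 26 times at Neurod1. The median over all 32851 promoter windows was 7, with quartiles of 3 and 20, and 94.57% held at least 1. At least as many were found in 3.458% of all windows for Hes5, 9.522% for Neurog1 and 76.69% for Myf5. Over the 6 called members with a window the count ran from 13 to 41 (median 27), over the 3 tested but not called from 19 to 32 (median 22), over the 7 untested ones with over 3 counts from 4 to 27 (median 17) and over the 9 silent members from 3 to 26 (median 9), taking the richest window of a gene with several. All 4 ranges overlapped: the silent Neurod1 with 26 and Ptf1a with 23 lay above the called Hes6 and Sim1. The E-box core CANNTG, also the same on both strands, occurred in 18 of 28 member windows and in 72.31% of all windows. These are descriptions of sequence, with no test.

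**Figure D2:**
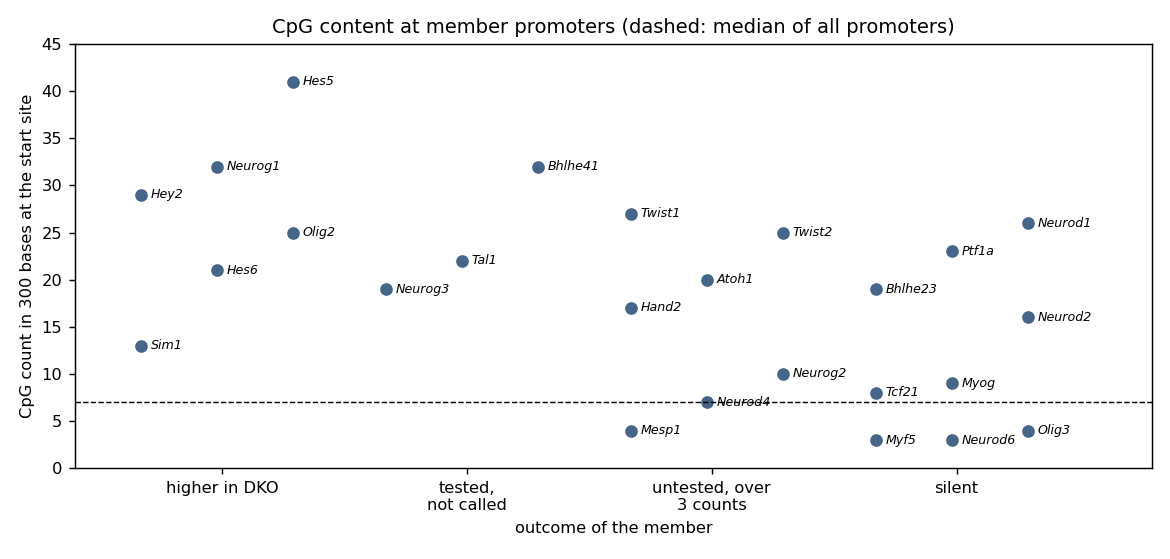
CpG count in the 300 bases around the start site (vertical axis) of the 25 members with a promoter window, grouped by outcome (horizontal axis); each point is 1 gene and the dashed line marks the median of all windows at 7. Called members lie between 13 and 41, uncalled ones between 19 and 32, untested ones between 4 and 27 and silent ones between 3 and 26, with overlap.

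Among neural regulators, Sim1 rose from a few counts in SKO to a level well above the floor in every DKO library. Sim1, a bHLH-PAS factor needed for hypothalamic neurons (chromosome 10, 50894698 to 50989156, GRCm38), measured 19.1, 8.97 and 12.9 CPM in DKO and 0.161, 0.460 and 0.164 CPM in SKO. The genotypes did not overlap, and the SKO level was that of 4, 10 and 4 counts. The log2 fold change was 5.70 (SE 0.53, adjusted p = 5.49e-05, edgeR quasi-likelihood test). Its paralog Sim2, a midline and craniofacial factor, measured 2.45, 1.31 and 0.388 CPM in DKO and 0.362, 0.644 and 0.205 CPM in SKO. DKO replicate 3 lay inside the SKO range and the difference was not called (1.76, SE 0.78, adjusted p = 0.13), although without that library the adjusted p was 0.0458.

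Olig2, which specifies motor neuron and oligodendrocyte progenitors (chromosome 16, 91225550 to 91228677), measured 2.67, 4.13 and 8.34 CPM in DKO and 0.121, 0.506 and 0.246 CPM in SKO. All DKO values lay above all SKO values (log2 fold change 4.11, SE 0.67, adjusted p = 0.00163, edgeR quasi-likelihood test). The neighbouring Olig1, its partner in oligodendrocytes, had 4 counts over DKO and 2 over SKO, a ratio of 2.19 (exact 95% Poisson interval 0.315 to 24.3). Olig3, a dorsal spinal cord factor, had 3 counts in DKO and 0 in SKO. Both were silent by the rule of at most 3 counts in each library. Of the 3 Olig paralogs, Olig2 was the one with over 3 counts in any library. Bhlhe22, a repressor of dorsal interneurons and cortical neurons, was below the filter at 12, 4 and 7 counts in DKO and 0 in every SKO library. With the DKO counts taken as exact it was at least 8.41-fold higher over the group. Bhlhe23 had 0 counts in all 6 libraries.

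Of the proneural and NeuroD genes, Neurog1 was the one called. Neurog1, which initiates sensory neurogenesis (chromosome 13, 56250478 to 56252180), had 43, 16 and 25 counts in DKO, or 2.45, 0.751 and 0.970 CPM, and 0 in all SKO libraries. With its DKO counts taken as exact it was at least 30.7-fold higher, against 3 counts over the SKO group (adjusted p = 0.00309, edgeR quasi-likelihood test). Its paralog Neurog2 had 4 counts in DKO replicate 2 and 0 elsewhere. Atoh1, the hair cell and cerebellar granule neuron factor, had 3, 1 and 6 counts in DKO and 0 in SKO. With those DKO counts taken as exact it was at least 3.66-fold higher. It was not called in the fit without a filter (adjusted p = 0.114, edgeR quasi-likelihood test). The retinal and neuronal factor Neurod4 had 24 counts in DKO replicate 3, 1 in replicate 1 and 0 in all other libraries, so the signal came from 1 animal. Neurod1 and Neurod6 had 0 counts throughout, Neurod2 had 1 count in SKO replicate 1, and Ptf1a, the pancreatic and inhibitory neuron factor, had 1 count in DKO replicate 2.

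Neurog3, the endocrine pancreas factor, stood apart in that it was counted at a substantial level in SKO oocytes. It measured 20.4, 20.6 and 24.7 CPM in SKO and 10.9, 22.5 and 9.23 CPM in DKO. DKO replicate 2 lay inside the SKO range and replicates 1 and 3 below it, and the difference was not called (log2 fold change -0.62, SE 0.34, adjusted p = 0.205, edgeR quasi-likelihood test). Without DKO replicate 2 it was -1.13 with an adjusted p of 0.0162. The level is uncertain: 273 exonic bases of Neurog3 are shared with Fam241b on the opposite strand in GENCODE M21, Fam241b measured 66.2 CPM in SKO and 78.8 in DKO on average, and the strand setting of the counting is not stated.

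**Figure D3:**
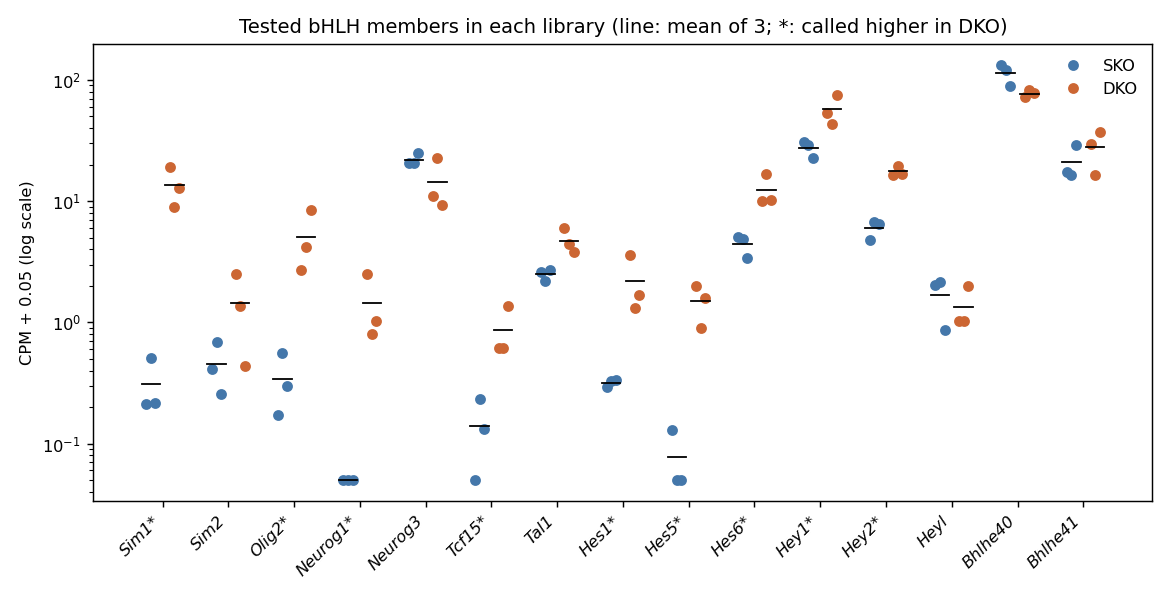
Level of each of the 15 tested members in each library, as CPM plus an offset of 0.05 on a log axis (vertical), with SKO in blue and DKO in orange, a line at the mean of 3 and an asterisk on members called higher. Sim1, Olig2, Neurog1, Tcf15, Hes1 and Hes5 start near the floor in SKO, whereas Hey1 and Bhlhe40 are well above it in both genotypes.

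Hes and Hey genes, most of them Notch-responsive repressors, were the best represented group. All 6 were tested, 5 were higher and 0 lower, beside 17.3% and 7.41% of all tested genes. Hes1 and Hes5, which hold back neuronal differentiation in progenitors, started from low levels. Both were tested only with the help of DKO libraries, a class in which 49.3% of all genes were higher. Hes1 (chromosome 16, 30065357 to 30067796) measured 3.53, 1.27 and 1.63 CPM in DKO and 0.241, 0.276 and 0.287 CPM in SKO (log2 fold change 2.97, SE 0.64, adjusted p = 0.00749, edgeR quasi-likelihood test). Hes5 (chromosome 4, 154960626 to 154962372) had 34, 18 and 40 counts in DKO and 2, 0 and 0 in SKO, a ratio of 50.5 (exact 95% Poisson interval 13.6 to 423) with an adjusted p of 0.00334. Its fitted log2 fold change went from 5.43 to 7.99 without SKO replicate 1, which held both SKO counts, and the latter value is no bound. GENCODE places the transcript Gm20421 on the opposite strand, sharing 433 exonic bases with Hes5.

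The 3 others that rose were well counted in both genotypes. Hes6 (chromosome 1, 91411483 to 91414038), which opposes Hes1 and favours differentiation, measured 9.96, 16.7 and 10.2 CPM in DKO and 5.03, 4.83 and 3.33 CPM in SKO (log2 fold change 1.48, SE 0.34, adjusted p = 0.00991, edgeR quasi-likelihood test). Hey2, a cardiovascular Notch effector (chromosome 10, 30832359 to 30842783), measured 16.4, 19.6 and 16.8 CPM in DKO and 4.75, 6.67 and 6.41 CPM in SKO, with little spread within either genotype (1.56, SE 0.27, adjusted p = 0.00226). Hey1 (chromosome 3, 8663359 to 8667038), a related effector in vessels and heart, measured 53.6, 43.5 and 75.7 CPM in DKO and 30.7, 29.1 and 22.7 CPM in SKO (1.07, SE 0.24, adjusted p = 0.0102). Without SKO replicate 3 the adjusted p of Hey1 was 0.056. Heyl, expressed in smooth muscle and neural tissue, did not follow its paralogs. It measured 0.967, 0.986 and 1.94 CPM in DKO and 1.97, 2.12 and 0.821 CPM in SKO, with full overlap (-0.32, SE 0.57, adjusted p = 0.717).

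Mesoderm and mesenchyme factors were mostly at a few counts. Tcf15, a factor of somites and the paraxial mesoderm (chromosome 2, 152143056 to 152149097), had 10, 12 and 34 counts in DKO and 0, 4 and 2 in SKO, or 0.569, 0.563 and 1.32 CPM against 0, 0.184 and 0.0821 CPM. It was called (log2 fold change 3.18, SE 0.96, adjusted p = 0.0353, edgeR quasi-likelihood test), but the call was lost when any of the 6 libraries was left out, with adjusted p from 0.0543 to 0.12, and without a filter (0.0542). Twist1, which promotes mesenchymal fate in cranial mesoderm and neural crest, had 21, 18 and 9 counts in DKO and 0 in all SKO libraries. With the DKO counts taken as exact it was at least 17.6-fold higher. It fell just short of the filter. In the edgeR fit without a filter, both Twist1 and Bhlhe22 were called (adjusted p = 0.00398 and 0.0296). Hand1, Neurod4, Atoh1 and Neurog2, also without SKO counts, were not called in it (adjusted p = 0.0594, 0.0641, 0.114 and 0.309).

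Hand1, a heart and trophoblast factor, had 19 counts in DKO replicate 2, 3 in replicate 1 and 0 elsewhere, and so rested mostly on 1 animal. Hand2, a heart and limb factor, had 5, 2 and 0 counts in DKO and 1 in SKO replicate 3, a ratio of 7.68 (exact 95% Poisson interval 0.987 to 346). Its antisense neighbour Hand2os1 shares 461 exonic bases with it and had 26 counts in DKO and 7 in SKO. Mesp1, Scx and Twist2 had more counts in SKO, at levels too low to test. Mesp1, which marks the earliest cardiac mesoderm, had 0 counts in DKO and 2, 8 and 0 in SKO. The tendon factor Scx had 4, 0 and 0 counts in DKO and 7, 5 and 3 in SKO, and it lies inside Bop1 on the opposite strand without sharing exons. Twist2 had 3 counts over DKO and 7 over SKO, a ratio of 0.470 (exact 95% Poisson interval 0.0785 to 2.06). Tcf21, a factor of stromal and epicardial progenitors, had 2 counts, and Msc, a muscle-associated repressor, had 1.

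**Figure D4:**
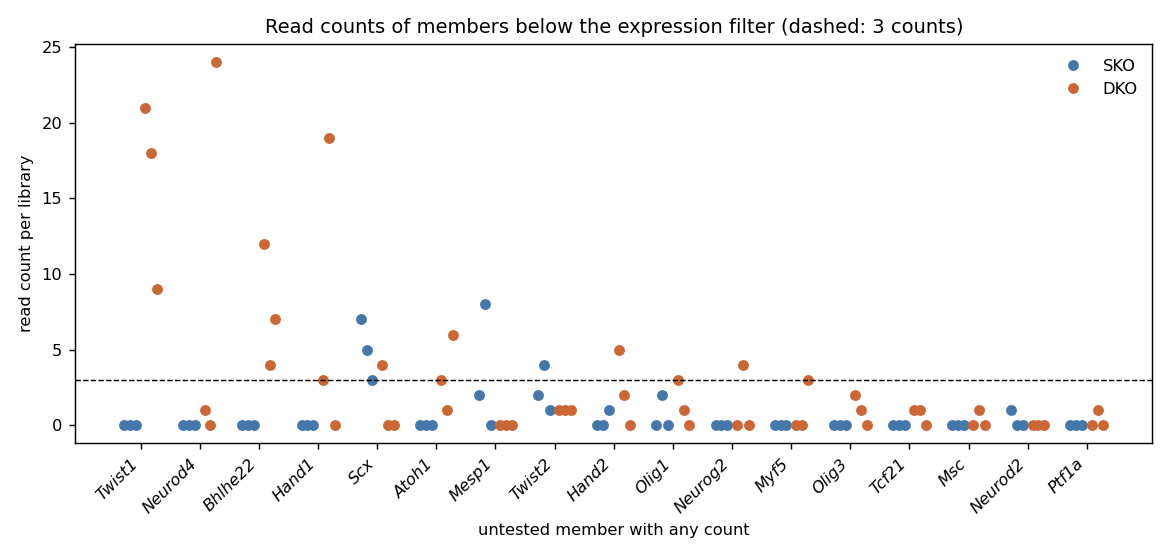
Read counts per library (vertical axis) of the 17 members that were below the filter but had at least 1 count (horizontal axis, in order of total count), with SKO in blue, DKO in orange and a dashed line at 3 counts. Twist1 and Bhlhe22 exceed the line in all 3 DKO libraries, while Neurod4 and Hand1 do so in a single one.

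The myogenic group was silent. Myod1, Myf6 and Myog had 0 counts in all 6 libraries, and Myf5 had 3 counts in DKO replicate 3 alone. In all, 13 members (34.2%) had at most 3 counts in each library, as did 25.6% of the genes in the table. They were Neurod1, Neurod2, Neurod6, Ptf1a, Olig1, Olig3, Bhlhe23, Myod1, Myf5, Myf6, Myog, Tcf21 and Msc. For 6 of them no count was found anywhere, which at this depth allows a level of up to 0.116 to 0.171 CPM per library. Under the rule of less than 0.5 CPM in every library the silent set had 19 members.

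Tal1, the regulator of blood and endothelial progenitors, was counted in both genotypes. It measured 5.92, 4.37 and 3.73 CPM in DKO and 2.53, 2.16 and 2.67 CPM in SKO. The groups did not overlap, but the difference was not called (log2 fold change 0.92, SE 0.38, adjusted p = 0.103, edgeR quasi-likelihood test). DKO lay fully above SKO in 10 of the 15 tested members (the 9 called ones and Tal1) and fully below it in 1, beside 24.7% and 19.6% of all tested genes. Of these 10 members, 6 were tested only with the help of DKO libraries, a class in which 61.4% of all genes lie fully above. Of the 8 that pass on SKO alone, 4 lay fully above and 1 fully below, beside 18.6% and 22.9% of such genes.

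Bhlhe40 and Bhlhe41, repressors tied to the circadian clock and hypoxia, were among the most abundant members. Bhlhe40 measured 71.8, 81.8 and 78.0 CPM in DKO and 133, 121 and 89.1 CPM in SKO. It was the member that lay fully below SKO, and it missed the threshold (log2 fold change -0.57, SE 0.19, adjusted p = 0.0515, edgeR quasi-likelihood test), while the DESeq2 Wald test called it (adjusted p = 0.0231). Its antisense neighbour 0610040F04Rik shares 118 exonic bases with it and averaged 31.8 CPM in DKO and 45.3 in SKO. Bhlhe41 measured 29.5, 16.4 and 37.1 CPM in DKO and 17.5, 16.3 and 28.9 CPM in SKO, with overlap (0.41, SE 0.33, adjusted p = 0.41). Per kilobase of the deposited gene length, Bhlhe40 was the most abundant member in SKO at a mean of 36.8 RPKM, followed by Neurog3 (14.2), Hey1 (12.5), Bhlhe41 (3.41), Hes6 (2.79) and Hey2 (2.35). In DKO the order was Hey1 (26.1 RPKM), Bhlhe40 (24.8), Neurog3 (9.24), Hes6 (7.80), Hey2 (6.94) and Bhlhe41 (4.52), while Sim1 reached 1.85 RPKM and Olig2 2.07 RPKM.

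**Figure D5:**
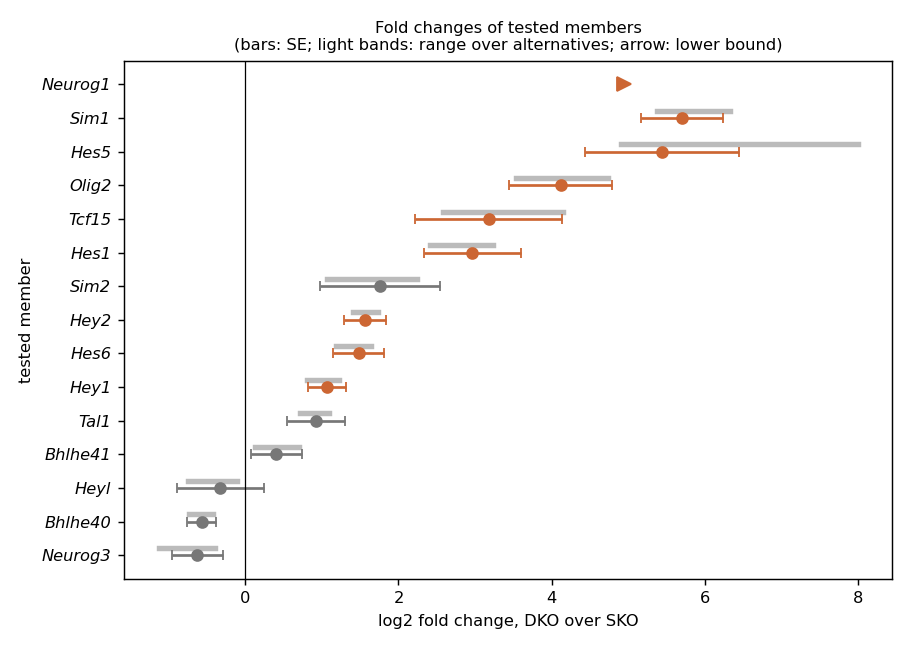
Log2 fold change of DKO over SKO (horizontal axis) for the 15 tested members (vertical axis), orange where called and grey where not, with bars for the standard error and light bands for the range over the alternative settings. Neurog1 is drawn as an arrow at its lower bound, and the called members with SKO counts run from 1.07 for Hey1 to 5.70 for Sim1.

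Dimer partners and antagonists of the members were taken from lists. Of the E-protein and Id genes, 7 of 7 were tested, 4 were higher (2 of them tested only with the help of DKO libraries) and 1 lower. Of all tested genes, 17.3% were higher and 7.41% lower. The E-protein gene Tcf4 went from 5.83 ± 2.36 to 31.0 ± 2.44 CPM (SD, n = 3 each, log2 fold change 2.41, adjusted p = 0.000484, edgeR), while the E-protein gene Tcf3 went from 47.8 ± 5.59 to 26.1 ± 3.89 CPM (-0.87, adjusted p = 0.0117). The call of Tcf3 was absent without SKO replicate 3. The inhibitors Id1 and Id3 rose by 3.08 and 2.33 on the log2 scale (adjusted p = 0.00496 and 0.00534). Of the partners of Sim and other bHLH-PAS proteins, Arnt2 rose from 0.241 to 9.20 CPM (5.23, adjusted p = 0.000999), and Arnt and Bmal1 were not called. Arnt2 was tested only with the help of DKO libraries, a class in which 49.3% of all genes were higher. The count of higher partners was 2 with library totals alone.

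In the Notch pathway, 13 of 17 listed genes were tested, 5 were higher (2 of them tested only with the help of DKO libraries) and 2 lower. The shares over all tested genes were 17.3% higher and 7.41% lower. The ligand gene Dll1 rose from 0.169 to 3.18 CPM (4.19, adjusted p = 0.00469, edgeR) and the receptor gene Notch1 from 5.52 ± 2.66 to 15.4 ± 6.75 CPM (1.49, adjusted p = 0.034). The glycosyltransferase gene Mfng, which modifies Notch receptors, rose by 0.70. The ligand gene Jag1, abundant in SKO oocytes at 917 ± 52.6 CPM, fell to 549 ± 57.6 CPM (-0.74, adjusted p = 0.00613). The count of higher genes was 2, 3, 1, 2 and 1 without DKO replicate 2, DKO replicate 3 and SKO replicates 1, 2 and 3. The count of lower genes was 1 without DKO replicate 1 or any SKO replicate, with library totals alone and with the stricter filter. Of the Groucho corepressors, which Hes proteins recruit, 5 of 6 were tested: Tle3 rose from 0.261 to 48.6 ± 1.72 CPM (7.48, adjusted p = 6.23e-06) and Tle6, a maternal-effect gene, fell from 775 ± 72.2 to 358 ± 134 CPM (-1.12, adjusted p = 0.0108). Tle3 was tested only with the help of DKO libraries, a class in which 49.3% of all genes were higher. The count of higher corepressors was 2 without DKO replicate 3, with library totals alone, with the DESeq2 Wald test and with the stricter filter.

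Markers of other ovarian cells were counted because Hes, Hey, Tal1, Tcf21 and Twist genes are also expressed in follicular and vascular cells. Of 15 tested granulosa and cumulus markers, 7 were higher and 1 lower, beside 17.3% and 7.41% of all tested genes. Of these 15, 6 were tested only with the help of DKO libraries, and 2 of the 6 were higher. The higher count was 4 without SKO replicate 1 or 2. The lower count was 0 with library totals alone and without DKO replicate 1, DKO replicate 2, SKO replicate 1 or SKO replicate 3. The summed level of all 20 was 471 to 555 CPM in SKO and 635 to 720 CPM in DKO, led by Serpine2, Nr5a2 and Ptgs2. Of the 20, 2 were silent: Ptx3 had 0 counts in every library and Tnfaip6 had 1 count in all. Amhr2 had 7 counts in DKO and 8 in SKO. For theca, stroma and endothelium, 5 of 14 tested markers were higher and 1 lower (0 lower without SKO replicate 3). Of the 14, 6 were tested only with the help of DKO libraries, and 2 of the 6 were higher. The summed level of the 20 markers was 136 to 181 CPM in SKO and 159 to 186 CPM in DKO, led by Pecam1, Tek and Cyp11a1. Of these 20 markers, 2 were silent: the endothelial gene Emcn had 0 counts and Cdh5 had 3 in DKO and 0 in SKO. Blood and immune markers summed to 2.30 to 4.75 CPM in SKO and 5.51 to 9.96 CPM in DKO, with 1 of 3 tested markers higher and 0 lower (edgeR, also 0 lower at an unadjusted p under 0.05 and by DESeq2). The marker that was higher passed the filter only with the help of DKO libraries, while Cd68 and Itgam were not called (adjusted p = 0.787 and 0.269). The count of higher blood and immune markers was 2 without a filter and 0 with the stricter filter. Of the 15 blood and immune markers, 7 were silent, and 3 of these (Hbb-bs, S100a8 and Tyrobp) had 0 counts. The silent, low and uncalled markers named above do not stand for their lists, in which 7, 5 and 1 of the tested markers were higher. The part of such cells in the differences of the members was not tested.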

How the data were processed

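RNA-seq was made from GV oocytes of 3 DKO and 3 SKO mice, and the submitters list these libraries as a re-analysis of earlier ones. RNA was amplified with the Ovation kit, per the labels' protocols. Amplified reads do not stand for separate molecules, so intervals and floors cover counting error only. Raw read counts per Entrez gene were deposited by the authors, with each gene's length. Per the submitters' processing notes, STAR 2.5.0a was used with GRCm38 (mm10). The counter, its annotation, its strand setting and its treatment of multiply aligned reads are not stated there. Of 24421 identifiers, 24387 matched RefSeq (GRCm38.p6), and the 34 others held at most 0.087% of any library. Unused columns of samples numbered 0.

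The 2 genotypes were compared in R 4.3.3 with edgeR 4.0.16 over the whole table: filterByExpr defaults (minimum count 10, minimum total 15) kept 14845 genes, scaling was TMM, and the two-sided quasi-likelihood test was adjusted by Benjamini-Hochberg and called under 0.05. Fold changes are DKO over SKO, and standard errors come from the F statistic. Where SKO had 0 counts, the fold is a bound computed with 3 counts for the whole group, with the DKO counts taken as exact. A ratio on 1 to 3 counts has an exact 95% Poisson interval. The code was tested on simulated counts.

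All 38 members are accounted for. Of each list, up to 4 called genes with the smallest adjusted p are named, and of each marker list the 3 most abundant tested genes, except that some of these genes are not reported here. Other genes were named after their values were seen. Of 198 list entries, 196 were found. Members and lists were chosen with earlier results of these data known. Alternatives were DESeq2 1.42.0, other scalings and filters, the replicate number as a block, each library left out, and other rules for silence.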

Additional observations from a re-analysis of the deposited data

How the results depend on the processing

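Of the values of single members under up to 12 alternatives, 162 kept their direction and side of the threshold, 6 gained a call, 8 lost one and 0 changed sign. The count of members higher in DKO was 6 with the stricter filter (11 members tested), 10 without a filter, 9 with both other scalings and the DESeq2 Wald test, and 8 to 10 with a library left out. The count of members lower went from 0 to 1 with DESeq2 size factors, with the DESeq2 Wald test and without a filter, where Bhlhe40 was called, and was 0 to 1 with a library left out (Neurog3 without DKO replicate 2, Bhlhe40 without SKO replicate 3). Silent members numbered 6 when 0 counts were required, 15 with thinned libraries, and 13 to 15 with a library left out. Over all genes, 1100 were lower, and 596 with library totals alone, a scaling under which the median log2 fold change went from 0.04 to 0.20 and the share of calls that were higher from 70% to 82.9%. With a library left out the lower count was 434 to 1501: it was 516, 464 and 434 without SKO replicates 1 to 3. The share of calls that were higher was then 80.1%, 80.9% and 81.8%. The cause was not tested. Deviations of same-numbered libraries correlated at 0.182, 0.0879 and 0.0613, each the best match for its DKO library, but the labels do not say that numbers pair mice. With the replicate block, 2651 genes were higher and 1364 lower, 9 members were higher and 0 lower. Depth limits the silent members: 3 counts correspond to 0.116 to 0.171 CPM.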

Other observations

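Some lineage bHLH genes outside the 38 members were also higher. Of 25 listed, 6 were tested, 4 were higher and 0 lower (edgeR quasi-likelihood test), with 10 silent in both genotypes. The lower count was 1 at an unadjusted p under 0.05, by DESeq2, without a filter, with the replicate block and without DKO replicate 2. Of all tested genes, 17.3% were higher and 7.41% lower, and 25.6% of the genes in the table were silent. All 4 higher genes were tested only with the help of DKO libraries, a class in which 49.3% of all genes were higher. The trophoblast and stem cell factor Ascl2 went from 0.135 to 10.8 ± 1.72 CPM (SD, n = 3 each, log2 fold change 6.22, adjusted p = 0.000125), Tcf24 from 0.616 to 13.2 ± 8.44 CPM (4.39) and the segmentation clock gene Hes7 from 0.0581 to 1.46 ± 0.645 CPM (4.54). Mesp2, the paralog of Mesp1, measured 113 ± 13.6 CPM in SKO and 76.5 ± 16.9 CPM in DKO (-0.56, adjusted p = 0.0687). Of 4 germline bHLH genes, all tested, 2 were higher and 0 lower, beside 17.3% and 7.41% of all tested genes. Sohlh2 and Sohlh1 were higher by 3.48 and 5.85 on the log2 scale, and Sohlh1 was tested only with the help of DKO libraries. Figla, the oocyte factor that activates zona genes, measured 10.2 CPM in SKO and 6.39 in DKO (adjusted p = 0.124). No germline gene was lower by edgeR or DESeq2, and 1 was at an unadjusted p under 0.05.

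Genes of the tissues in which lineage bHLH factors act elsewhere, regulators among them, changed as follows. Of 14 tested neuronal differentiation genes, 9 were higher and 0 lower, also 0 at an unadjusted p under 0.05 and by DESeq2. The neurofilament genes Nefm and Nefl, with no SKO count, rose at least 116-fold and at least 42.4-fold with their DKO counts taken as exact. Gad2 rose by 2.98 and Mapt by 3.43 on the log2 scale (edgeR). Of these 9, 5 would not have passed the filter on SKO counts. The well-counted pan-neuronal genes Tubb3 and Map2 were not called (-0.07 and -0.17, adjusted p = 0.92 and 0.657), Dcx, Stmn2 and Gap43 had 1, 0 and 3 counts over DKO and 0 over SKO, and Neurod1, Neurod2 and Neurod6 were silent. Of 11 tested skeletal muscle genes, 6 were higher and 1 lower (Chrng by -1.22), although all 4 myogenic bHLH genes were silent. The lower count was 0 with library totals alone and without DKO replicate 1, SKO replicate 1 or SKO replicate 2. Those higher included the upstream regulator Pax3, which went from 0.506 to 10.6 ± 1.33 CPM. Myh3 and Mef2c rose by 2.76 and 3.34, and Ckm, Myl1 and Pax7 had 0 DKO counts. Of 10 tested tendon and mesenchyme genes, 8 were higher (4 without SKO replicate 1) and 0 lower, also 0 at an unadjusted p under 0.05 and by DESeq2, with Fn1 at 80.8 ± 20.6 CPM from 11.7, Col1a1 higher by 4.15, Snai2 by 3.14 and Sox9 at a ratio of 169 (exact 95% Poisson interval 46.4 to 1402). Of 6 tested erythroid genes, 2 were higher (Gata2 by 5.13 and Lmo2 by 5.59) and 0 lower, also 0 at an unadjusted p under 0.05 and by DESeq2, but 1 lower without DKO replicate 2. Of the genes called higher, 4 of 4 other lineage bHLH genes, 3 of 6 muscle, 4 of 8 tendon and mesenchyme and 2 of 2 erythroid genes were tested only with the help of DKO libraries. Over all tested genes 17.3% were higher, as were 49.3% of those that entered in this way, and no list was compared with the rest by a test.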
